A study of Mus musculus with 16 samples.

Results

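The chromatin regions described here lie within 20 Mb of the Tet2 gene on mouse chromosome 3. Peaks of 16 ATAC-seq lists were merged wherever they shared at least 1 bp, and regions were kept whose midpoint lay in that stretch and that held a peak in at least 4 lists. This gave 1735 regions, of 128335 such regions in the genome and of 3814 merged regions in the stretch. Tet2 itself lies at chr3:133463679-133545139 (mm10), on the minus strand. Distances are counted from the gene body, on the side of lower or of higher coordinates.

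ATAC-seq marks accessible DNA by the insertions of a transposase. It was done on bone marrow stem and progenitor cells of the blood (HSPCs), with 4 libraries for each of 4 genotypes. WT mice were Ep300 fl/fl, P300KO mice Mx1-Cre;Ep300 fl/fl, TET2KO mice Ep300 fl/fl;Tet2-/-, and P300KO_TET2KO mice Mx1-Cre;Ep300 fl/fl;Tet2-/-. All were on a C57BL/6 background and received poly(I:C), which turns on the Cre of the Mx1 promoter in blood and other interferon-responsive cells, so p300 was removed in the adult animal while the loss of Tet2 needed no Cre. Each library pooled the cells of a pair of age-matched mice, so a library and not a mouse is the replicate. A merged peak file is named in the labels of replicates 1 and 2, called deposit set 1, and not in those of replicates 3 and 4, called deposit set 2. Nothing in the labels says what else set them apart.

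TET2 oxidizes methylated cytosine in CpG dinucleotides, a step toward removing the methyl mark, and its loss is a common early lesion of myeloid neoplasms. p300 is a coactivator that acetylates histones at enhancers and promoters. A disrupted gene is inherited together with the chromosome around it, which is why regions were ordered by distance from Tet2. How much of chromosome 3 the Tet2-/- animals took from the founder of the allele, and whether its sequence differed, is not given in the sources used here, and its part in the values below was not tested.

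Among the regions called with loss of Tet2 the sequences of 3 higher and 3 lower ones are shown, as mm10 has them, to let the underlying DNA be seen. They are the called regions with the smallest p in each direction whose window, 100 bp either side of the strongest summit, lies outside annotated exons. Capitals mark CpG dinucleotides, the substrate of TET2. The sequences come from the reference genome and not from the animals.
Higher, near Sec24b, chr3:130090438-130090638, plus strand: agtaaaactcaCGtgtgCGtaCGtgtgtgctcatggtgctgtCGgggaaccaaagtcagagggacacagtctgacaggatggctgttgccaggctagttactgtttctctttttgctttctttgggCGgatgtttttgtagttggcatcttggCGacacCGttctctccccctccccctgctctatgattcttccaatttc
Higher, near 4930432M17Rik, chr3:121619260-121619460, plus strand: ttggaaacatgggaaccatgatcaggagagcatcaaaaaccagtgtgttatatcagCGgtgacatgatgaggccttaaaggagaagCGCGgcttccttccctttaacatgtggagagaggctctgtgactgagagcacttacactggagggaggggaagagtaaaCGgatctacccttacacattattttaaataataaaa
Higher, in Sass6 and Trmt13, chr3:116601891-116602091, plus strand: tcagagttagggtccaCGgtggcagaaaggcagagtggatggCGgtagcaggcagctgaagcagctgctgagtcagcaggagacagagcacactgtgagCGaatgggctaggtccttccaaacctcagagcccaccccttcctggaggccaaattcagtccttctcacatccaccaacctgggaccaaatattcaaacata
Lower, near Cnn3, chr3:121369731-121369931, plus strand: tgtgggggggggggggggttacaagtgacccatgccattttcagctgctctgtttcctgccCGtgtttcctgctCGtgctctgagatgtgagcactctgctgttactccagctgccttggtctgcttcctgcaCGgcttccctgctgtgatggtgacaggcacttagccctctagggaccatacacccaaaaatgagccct
Lower, near H2afz, chr3:137775191-137775391, plus strand: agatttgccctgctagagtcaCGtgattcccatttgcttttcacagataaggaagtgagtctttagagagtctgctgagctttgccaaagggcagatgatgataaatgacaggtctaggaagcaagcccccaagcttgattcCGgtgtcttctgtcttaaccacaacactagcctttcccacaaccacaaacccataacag
Lower, at Rwdd3, chr3:121160550-121160750, plus strand: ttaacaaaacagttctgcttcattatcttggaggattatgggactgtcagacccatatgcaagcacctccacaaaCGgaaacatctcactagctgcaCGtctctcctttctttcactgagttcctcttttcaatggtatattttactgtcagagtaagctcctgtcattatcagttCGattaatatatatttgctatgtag
The number of CpGs in these windows ran from 2 to 7, with 7 in the window near Sec24b. Over all 1735 regions the median window held 3 CpGs, and so did the median of the 20 called regions. GC content had a median of 47.8% in the windows called higher, 50.7% in those called lower and 48.3% in all regions of the stretch.

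To compare libraries, the peaks of a list were ranked by their −log10 p, and a region was given its rank percentile, where 100 is the strongest peak of that list and 0 means that no peak was called. The lists carry no read counts, so depth per library is unknown and a 0 is a region not detected at that depth. Set 1 lists held 86039 to 110055 peaks and set 2 lists 130610 to 137335, and of the 1735 regions 586 to 1094 had a peak in a set 1 library and 1503 to 1556 in a set 2 library. The deposit set was therefore a term of the main fit. Promoters of 8 of 8 stem and progenitor marker genes, among them Kit and Cd34, held a peak in all 16 lists, at medians of 91.0 to 97.6. Of the T cell markers, 0 of 4 were in all 16 lists, and no peak was listed at Ncr1, Ly6g or Ms4a1.

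Of 7 regions overlapping the gene with 10 kb either side, none was called for the effect of Tet2 loss. The promoter region, chr3:133543815-133545379, had percentiles of 89.0, 91.9, 92.2 and 92.3 in WT, 90.7, 93.7, 92.7 and 92.1 in P300KO, 90.6, 90.7, 92.9 and 90.6 in TET2KO, and 92.0, 91.3, 91.9 and 90.9 in P300KO_TET2KO. The 4 groups overlapped, and the mean Tet2 effect was −0.49 ± 0.61 percentile points (SE; limma, adjusted p = 0.783). With peaks so alike in all genotypes, the promoter gives no check of the Tet2 labels. A weaker region inside the gene, chr3:133543218-133543373, was listed in none of the 8 Tet2-intact libraries and in 4 of the 8 Tet2-lacking ones, at 34.8 in TET2KO replicate 3 and at 43.8, 26.5 and 32.5 in P300KO_TET2KO replicates 1, 3 and 4. It passed the filter only through the Tet2-lacking libraries and was not called. Counting every merged region at the gene, a library had 6.62 ± 2.39 of them without Tet2 and 7.25 ± 0.71 with it (SD, n = 8 each; exact permutation test within deposit set and p300 background, two-sided p = 0.457, smallest possible 0.00154). In set 1 the difference was −2.5 in both backgrounds, and in set 2 it was 1.0 and 1.5. With only peaks at a −log10 q of at least 2, the difference turned to 1.5 more regions without Tet2 (exact permutation p = 0.00617).

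**Figure D1:**
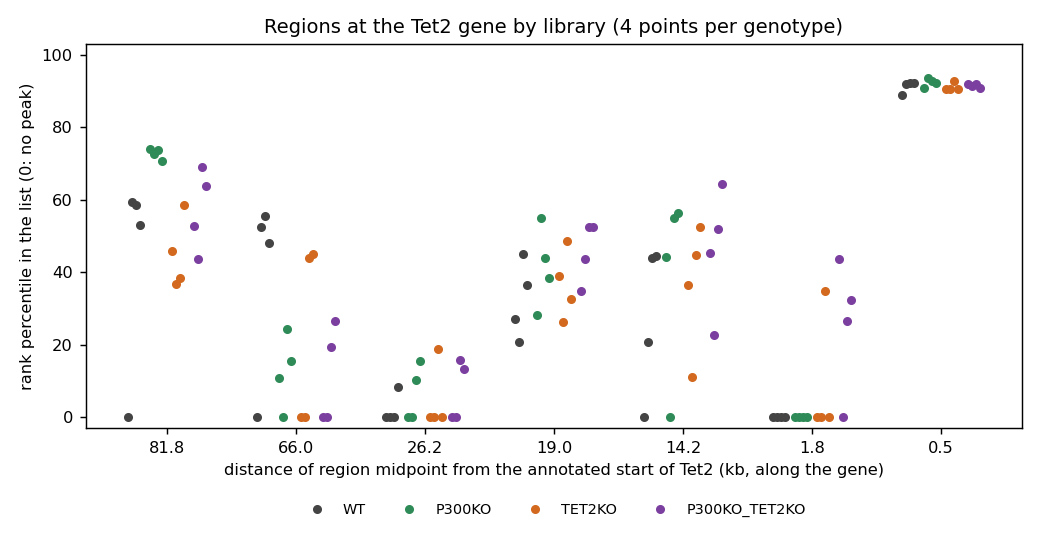
Rank percentile (vertical axis, 0 where no peak was listed) of the 7 regions at the Tet2 gene in each library, ordered along the chromosome and labelled by the distance of the midpoint from the annotated start of Tet2 in kb. Each point is 1 library and colors are genotypes; the promoter region at the right stays between 89.0 and 93.7 in all 16.

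Away from the gene, 20 of the 1735 regions (1.15%) were called for the mean effect of Tet2 loss over both p300 backgrounds, 7 higher (0.403%) and 13 lower (0.749%) without Tet2. Over all regions tested, 0.0818% were called higher and 0.104% lower. A region was called at a limma adjusted p under 0.05 over all 128335 regions, with the same sign in both backgrounds. Over all regions tested 0.185% were called (238 regions), and outside the stretch 218 of 126600 (0.172%). On the rest of chromosome 3 it was 4 of 4604 (0.0869%). Set 2 alone called 49 regions of the stretch (2.94%, against 0.475% elsewhere), set 1 alone 0 (against 0.00266%), and a fit without the deposit set 5 (0.288% against 0.0111%). Of the 20, 14 stayed called whichever library was left out. A limit applies to 12 of the 20: in the Tet2 state in which they were low, 10 had no peak and 2 had a peak in 1 library, so they passed the filter of at least 4 lists only through the state in which they were high. The other 8 had a peak in at least 4 libraries of each state. Their p values are given below as a description. At an unadjusted p under 0.05 with the same sign, 284 regions of the stretch (16.4%) passed, against 10.5% of all regions. By direction, 8.07% were higher and 8.30% lower, against 6.4% and 4.12% of all. For the mean effect of p300 loss, the same cut took 12.3% of the stretch and 12.9% of all regions, and 2 regions of the stretch were called (0.115%) against 0.201% of all. They were 1 higher and 1 lower, against 0.081% and 0.12% of all.

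The called regions ran from 16.86 Mb on the lower-coordinate side to 5.66 Mb on the higher side, with no call among the 107 regions farther out on the lower side or the 626 farther out on the higher side. Counts by distance follow, and no test compared the bands. Within 5 Mb of Tet2, 10 of 491 regions were called (2.04%, exact binomial 95% interval 0.981 to 3.71), and between 5 and 20 Mb 10 of 1244 (0.804%, 0.386 to 1.47). The intervals treat regions as independent, which neighbors are not. On the lower side the calls were 9 of 413 regions at 10 to 20 Mb, 0 of 158 at 5 to 10 Mb, and 4 of 181 at 1 to 5 Mb. The interval at 5 to 10 Mb, 0 to 2.31%, held the shares of the bands on either side, 2.18% and 2.21%. On the higher side the calls were 1 of 29 within 1 Mb, 5 of 241 at 1 to 5 Mb, 1 of 175 at 5 to 10 Mb and 0 of 498 at 10 to 20 Mb.

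In bins of 2 Mb the share at an unadjusted p under 0.05 on the lower side was 24.1% at 16 to 18 Mb, 33.3% at 14 to 16 Mb (of only 9 regions), 33.3% at 12 to 14 Mb and 24.3% at 2 to 4 Mb. On the higher side it was 25.9% at 4 to 6 Mb and 29.6% at 6 to 8 Mb (of 27 regions). Bins below the 10.5% of all regions were those at 18 to 20 Mb (9.09%) and from 4 to 10 Mb (6.25% to 9.33%) on the lower side. On the higher side they were those from 8 to 12 Mb (10.3% and 9.91%) and at 14 to 16 Mb, the lowest, with 3.80%. Dense stretches were also found elsewhere. Of 474 tiles of 5 Mb with at least 50 regions, the highest shares of calls were at 110 to 115 Mb of chromosome 4 (5 of 99, 5.05%) and 115 to 120 Mb of chromosome 14 (10 of 203, 4.93%). Of the 8 such tiles with regions of the Tet2 stretch, those at 120 to 125, 130 to 135 and 135 to 140 Mb ranked 3 (7 of 264, 2.65%), 6 (4 of 190, 2.11%) and 8 (6 of 301, 1.99%). The tile at 115 to 120 Mb ranked 19 (2 of 162) and that at 125 to 130 Mb ranked 56 (1 of 198). The 3 tiles from 140 to 155 Mb had no call, as did 345 of the 474 in all. Tiles with high shares of calls thus lay both in the stretch around Tet2 and elsewhere. No other stretch as wide as this one was counted.

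**Figure D2:**
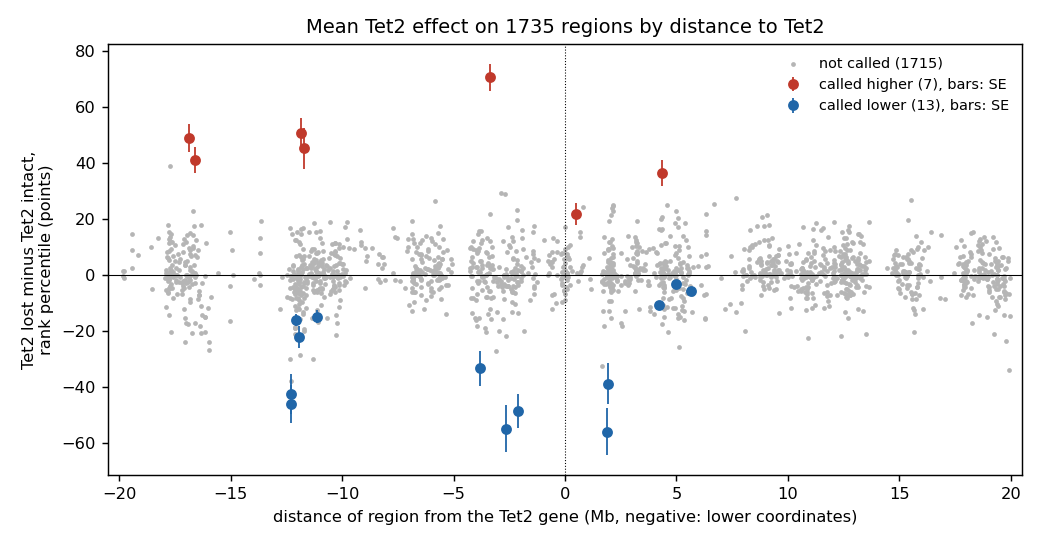
Mean effect of Tet2 loss on the rank percentile of each of the 1735 regions (vertical axis, percentile points) against distance from Tet2 (horizontal axis, Mb). Red points are the 7 regions called higher and blue the 13 called lower, with SE bars; no call lies beyond 5.66 Mb on the right.

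**Figure D3:**
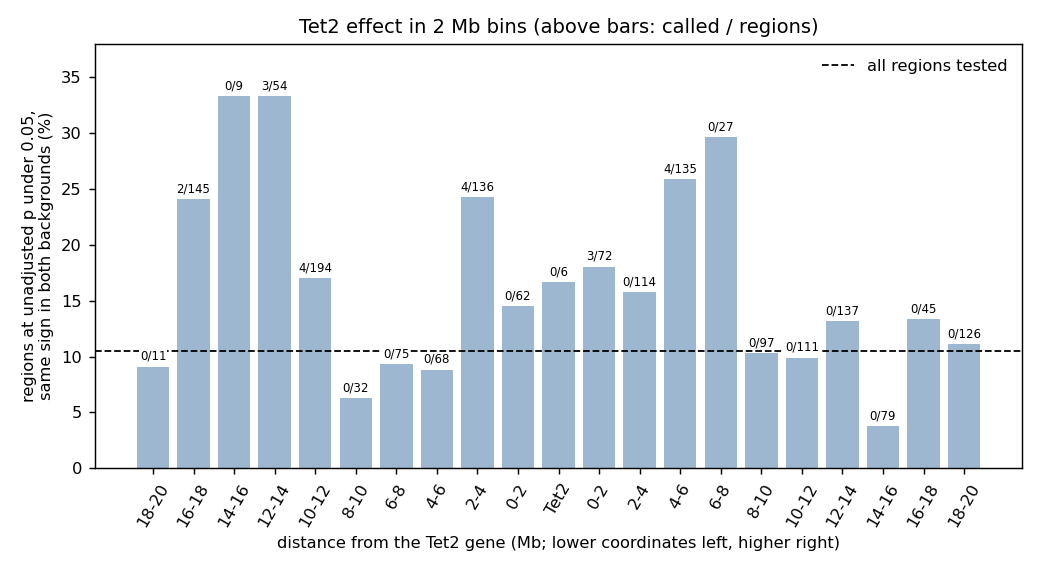
Share of regions at an unadjusted p under 0.05 with the same sign in both backgrounds (bars, %) in bins of 2 Mb by distance from Tet2, with called regions over all regions above each bar. The dashed line is the 10.5% of all regions tested; on the left the bins from 4 to 10 Mb and at 18 to 20 Mb lie under it, and on the right those from 8 to 12 Mb and at 14 to 16 Mb.

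Presence followed Tet2 status without exception at 2 regions, both gained: each held a peak in 8 of 8 Tet2-lacking libraries and 0 of 8 intact ones. In the genome 6 regions did so (0.00468%), and none was lost in this way, in the stretch or elsewhere. The first, chr3:130090177-130090906, lies between genes 3.37 Mb from Tet2, with Sec24b, a coat protein of vesicles leaving the endoplasmic reticulum, as the nearest coding gene at 28988 bp. Its percentiles were 57.1, 68.9, 78.9 and 80.8 in TET2KO and 64.4, 65.4, 76.8 and 72.6 in P300KO_TET2KO, and 0 in WT and P300KO. It was higher by 71.4 ± 7.02 points in TET2KO against WT (SE; limma adjusted p = 0.00100) and by 69.8 ± 7.02 in P300KO_TET2KO against P300KO (adjusted p = 0.000708). The region passed the filter only through the Tet2-lacking libraries. The authors' fold over local background at its peaks was 5.10 to 19.0.

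The second gained region, chr3:121619178-121619605, lies between genes 11.84 Mb from Tet2. In TET2KO it reached 39.1, 36.7, 60.6 and 65.6 and in P300KO_TET2KO 28.9, 39.98, 68.8 and 66.8, with 0 in all 8 intact libraries. The highest values were those of set 2 in both genotypes. The differences were 50.5 ± 7.43 (adjusted p = 0.0350) and 51.1 ± 7.43 points (adjusted p = 0.00802; limma), again for a region that passed the filter only through the Tet2-lacking libraries.

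A pair of regions at the far lower end came close to the same pattern. The one at chr3:116601674-116602259, in an intron of Sass6, which builds centrioles, and of the overlapping Trmt13, a tRNA methyltransferase gene, had 41.0 to 64.6 in the 8 Tet2-lacking libraries. It was at 0 in 7 intact libraries and at 25.1 in WT replicate 4. Its neighbor at chr3:116837189-116837466, between genes near Frrs1, had 39.5 to 56.0 without Tet2 and again a single intact peak, 29.1 in WT replicate 4. The mean Tet2 effects were 48.9 ± 5.07 and 41.1 ± 4.70 points (limma adjusted p = 0.000276 and 0.000861), and both regions passed the filter only through the Tet2-lacking libraries.

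The other 3 regions called higher were graded or less regular. Inside Dnajb14, a co-chaperone gene, at a start site of the unclassified transcript Gm43088 and not of Dnajb14, chr3:137896365-137897413 lay between 0 and 27.6 with Tet2 and between 30.1 and 60.6 without it, and the groups did not overlap (36.6 ± 4.70 points, limma adjusted p = 0.00242). At a start site inside Abcd3, a peroxisomal transporter gene, chr3:121768819-121769119 was at 0 in every intact library and in TET2KO replicates 1 and 2, and at 49.9 to 65.1 in the other Tet2-lacking libraries (45.2 ± 7.24 points, limma adjusted p = 0.0136). The called region nearest to Tet2, chr3:134033887-134034238 at 0.489 Mb, lies in an intron of the noncoding gene Gm26691. It was at 0 in all intact libraries, at 0, 0, 18.9 and 2.2 in TET2KO, and at 28.9, 24.8, 55.7 and 43.8 in P300KO_TET2KO. Its difference was 5.29 ± 5.52 points on the WT background and 38.3 ± 5.52 on the P300KO background, with a mean effect at an adjusted p of 0.0271 (limma) that passed the threshold in 8 of 16 fits leaving out 1 library.

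Among the 13 regions called lower, 6 had no peak in any Tet2-lacking library. In an intron of Cisd2, which codes for an iron-sulfur protein, chr3:135417682-135418233 was at 60.5, 0, 76.1 and 76.3 in WT and at 62.9, 29.3, 64.1 and 77.8 in P300KO, and at 0 in all 8 libraries without Tet2. Between genes on the other side, nearest to the ribosomal protein gene Rpl34, chr3:130796312-130797203 was at 0, 69.4, 78.5 and 73.0 in WT and 29.8, 49.3, 69.2 and 70.3 in P300KO, and again at 0 in all Tet2-lacking libraries. In each, the lone intact library without a peak was a set 1 WT library. The mean effects were −55.9 ± 8.45 and −54.9 ± 8.41 points (limma adjusted p = 0.00931 and 0.0101). Both passed the filter only through the intact libraries, as did the next 4.

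Peaks were likewise absent from all Tet2-lacking libraries near a start site inside Rwdd3 (chr3:121159593-121160102, with a peak in 7 of 8 intact libraries), near Manba, a lysosomal mannosidase gene (chr3:135476916-135477514, 7 of 8), near Egf, the epidermal growth factor gene (chr3:129658747-129659214, 6 of 8) and near Slc44a3 (chr3:121544743-121544948, 5 of 8). Adjusted p values of these 4 lay between 0.0210 and 0.0387 (limma). Leaving out 1 library at a time, the call was kept in 11 of 16 fits at Rwdd3, 5 of 16 near Egf, 5 of 16 near Slc44a3 and 2 of 16 near Manba. The peaks near Slc44a3 were in 1 of 4 WT libraries, at 26.5 in replicate 3, and in 4 of 4 P300KO libraries. The differences there were −6.63 ± 5.66 points on the WT background and −37.6 ± 5.66 on the P300KO background (SE). Near Egf, 2 of 4 WT and 4 of 4 P300KO libraries had a peak. Weaker peaks remained without Tet2 at 2 further regions. In an exon of Sgms2, a sphingomyelin synthase gene, chr3:131330272-131330562 lay between 46.1 and 77.3 with Tet2 and between 0 and 41.1 without it. The second Rwdd3 region, chr3:121160439-121161573, lay between 47.1 and 75.3 with Tet2 and between 0 and 36.4 without it. Neither overlapped between the groups (limma adjusted p = 0.00218 and 0.00783).

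The other 5 regions called lower had a peak in all 16 lists, so they passed no filter through 1 group. The widest of them, chr3:121369255-121370813 near the actin-binding gene Cnn3, was at 87.3, 89.2, 93.7 and 93.4 in WT and 77.2, 84.5, 86.8 and 82.8 in P300KO. Without Tet2 it was at 77.8, 73.7, 86.0 and 88.6 in TET2KO and 54.1, 48.9, 68.7 and 68.9 in P300KO_TET2KO, lowest where both were absent (mean Tet2 effect −16.0 ± 1.98 points, limma adjusted p = 0.00168). It was also 1 of the 2 regions called for the p300 effect (−14.8 points, limma adjusted p = 0.00767). Near the histone variant gene H2afz, chr3:137774910-137775845 had 84.6 to 89.3 with Tet2 and 70.2 to 83.3 without (−10.5 ± 1.39 points, limma adjusted p = 0.00306). In an intron of Bcar3, chr3:122339921-122340955 had 74.8 to 85.5 and 55.7 to 76.4, which overlap (−14.8 ± 2.40 points, limma adjusted p = 0.0144).

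Both remaining regions were strong promoters with small shifts. At Eif4e, which codes for the cap-binding translation factor, chr3:138526237-138527571 had 95.1 to 98.1 with Tet2 and 91.6 to 95.01 without, a mean effect of −3.09 ± 0.55 points (limma adjusted p = 0.0271). That call was kept in 9 of 16 fits leaving out 1 library and in 3 of 11 other alternatives. At Stpg2, chr3:139205251-139206180 had 90.6 to 95.4 and 84.5 to 90.9, a mean effect of −5.54 ± 0.81 points (adjusted p = 0.00752). Among the 432 regions of the stretch with a peak in all 16 lists, fitted alone, 5 were called (1.16%), against 0.237% of such regions outside the stretch.

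**Figure D4:**
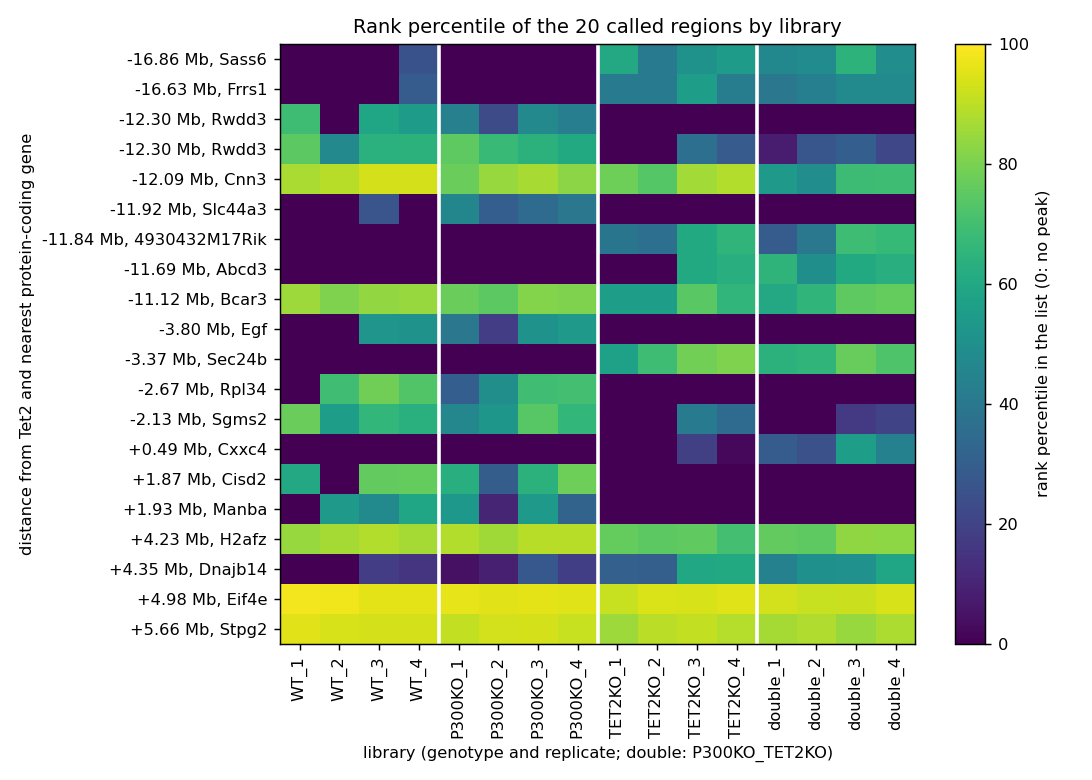
Rank percentile (color, 0 where no peak was listed) of the 20 called regions, 1 per row, in the 16 libraries, 1 per column, grouped by genotype. Rows are ordered by distance from Tet2 and named by the nearest protein-coding gene; the row at −3.37 Mb is at 0 in all 8 intact libraries.

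The looser rule, a peak in at least 3 of 4 libraries of one Tet2 state and at most 1 of 4 of the other in both backgrounds, was met by 19 regions of the stretch (1.10%), 9 gained and 10 lost, against 0.288% of all regions (0.168% gained and 0.121% lost). Of these, 8 were also called. One of those not called lies in an intron of Nfkb1, which codes for an NF-kappaB subunit (chr3:135629989-135630276), and was listed in 6 of 8 Tet2-lacking and 0 of 8 intact libraries. Ranks separated the Tet2 states in each of the 4 combinations of deposit set and p300 background at 18 regions (1.04%), 8 higher and 10 lower, against 0.666% of all regions (0.383% higher and 0.283% lower), and 12 of them were called.

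TET2KO against WT and P300KO_TET2KO against P300KO share no libraries. TET2KO against WT alone called 2 regions of the stretch, both higher (0.115%). Of all regions 0.00701% were called, 0.00312% higher and 0.0039% lower. In turn, P300KO_TET2KO against P300KO called 9, 6 higher and 3 lower (0.519%), against 0.0748% of all, 0.0343% higher and 0.0405% lower. At an unadjusted p under 0.05, TET2KO against WT took 7.97% of all regions and P300KO_TET2KO against P300KO 7.37%. Of 184 regions of the stretch with an unadjusted p under 0.05 in TET2KO against WT, 151 (82.1%) had the same sign in the other comparison, and of 10040 such regions elsewhere 70.5%. In the reverse direction it was 149 of 182 (81.9%) against 70.7%. A difference of the Tet2 effect between the backgrounds was called at 0 of 1735 regions by limma, with 69 (3.98%) at an unadjusted p under 0.05 against 3.90% of all regions. This leaves differences such as the one in the Gm26691 intron, 0.489 Mb from Tet2, without a call.

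**Figure D5:**
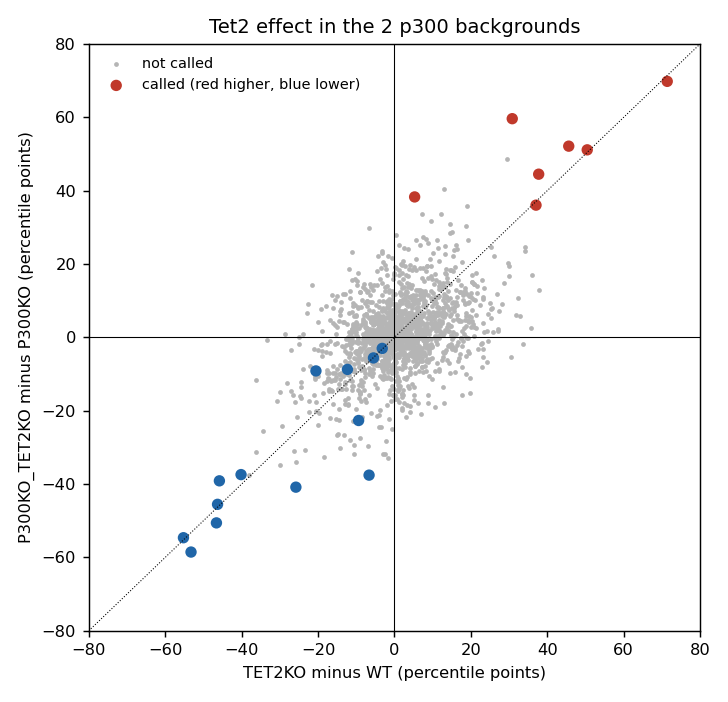
Effect of Tet2 loss on each region with p300 intact (horizontal axis, TET2KO minus WT) and with p300 lost (vertical axis, P300KO_TET2KO minus P300KO), both in percentile points, with the dotted line marking equal effects. All 20 called regions (colored) have the same sign on both axes, which the call requires.

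Promoter regions of 5 lists of genes in the stretch were counted, each region once per list, against 0.185% called and 10.5% at an unadjusted p under 0.05 with the same sign over all regions tested (6.4% higher and 4.12% lower). Together the lists held 119 regions, of which 1 was called (0.840%) and 24 passed the unadjusted cut (10 higher and 14 lower, 20.2%). All 491 promoter regions of the stretch had shares of 1.22% and 17.7%. At the immediate neighbors of Tet2, such as Ppa2, Npnt and Cxxc4, 0 of 15 were called by limma, with 3 higher and 3 lower at the unadjusted cut. The strongest Ppa2 promoter region, at a pyrophosphatase gene, had an effect of −0.85 ± 0.29 points and that of Npnt, an extracellular matrix gene, of 5.85 ± 2.36. At 16 blood and immune regulators, 0 of 53 were called, with 4 higher and 5 lower at the unadjusted cut. There the strongest region of Lef1, a Wnt-pathway transcription factor gene, had an effect of 1.57 ± 3.52 points and that of Nfkb1 of 3.51 ± 1.92. Neither passed the unadjusted cut.

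Interferon-induced genes, which were the guanylate-binding protein genes Gbp2, Gbp2b, Gbp3, Gbp5 and Gbp7 with Ifi44 and Ifi44l, had 10 promoter regions, 0 called and 1 higher at the unadjusted cut. All animals had received poly(I:C), an inducer of interferon. Of 24 regions at 13 genes of gene expression and growth, 1 was called, the Eif4e promoter, and 5 were lower and 1 higher at the unadjusted cut. Genes of metabolism had 17, with 0 called and 1 in each direction at the unadjusted cut. The medians of the strongest regions' effects were 0.21, 0.10, 0.42, −0.48 and −0.07 points in these 5 lists, beside 0.31 over all promoter regions of the stretch and 0.80 over all regions tested.

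By position the 1735 regions were 28.3% promoter (within 3 kb of a start site), 35.7% intron, 33.3% intergenic and 2.71% exon. Of the 20 called, 6 were promoter, 4 intron, 9 intergenic and 1 exon. The share of a library's peaks that fell in the stretch was 1.25% ± 0.08 without Tet2 and 1.26% ± 0.10 with it (SD, n = 8 each; exact permutation test, two-sided p = 0.431). The difference, −0.011 percentage points, was smaller than the spread between libraries.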

How the data were processed

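ATAC-seq peak lists of 16 HSPC libraries were used. Per the labels and the study's methods, the authors trimmed reads with cutadapt 1.9.1, aligned them to mm10 with Bowtie2 2.2.6 and called peaks per library with MACS2 2.1.0. The deposited lists give a fold enrichment (a ratio to local background) and the authors' −log10 p and −log10 q for every summit. Summits of 1 interval were counted as 1 peak, by the largest −log10 p. Rank percentiles of all 128335 regions with a peak in at least 4 lists were fitted with limma 3.58.1 (R 4.3.3; empirical Bayes with trend) on genotype and deposit set, with Benjamini-Hochberg adjustment over all regions. Single values per library were tested by exact permutation of Tet2 labels within deposit set and p300 background (1296 arrangements). The fit was tested on simulated data: fitted contrasts were unbiased and false calls few, but nearly all planted shifts of moderate size and many as large as those called were missed, so regions without a call may still differ. The first pass criterion, a high recovery, was not met and was replaced by bias, null rate and false calls after this was seen. Annotation was GENCODE M21 and sequence RefSeq's mm10 assembly. The Tet2 promoter sequence was not shown since its window overlaps an exon.

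The stretch, gene lists and tests were chosen with earlier results of these data known. Regions named were those at Tet2 with 10 kb either side and the called regions with the smallest p, at most 10 in each direction (all 7 higher and 10 of the 13 lower); the other 3 called lower, the Nfkb1 intron and the tiles on other chromosomes were named after their values were seen. Tables were made with Python 3.11.15 (scipy 1.17.1, pandas 2.3.3, numpy 2.4.6) and figures with matplotlib 3.10.9.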

Additional observations from a re-analysis of the deposited data

Results flagged for a closer look

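Of 116 groups of 4 libraries examined, 108 at 27 regions (the 7 at Tet2 and the 20 called) and 8 of library totals, 15 had 1 library far from the other 3 by Dixon's criterion. The criterion flags about 1 of 20 groups of normally spread values, but these percentiles pile up at 0. A group with 1 peak and 0 in the other 3 is flagged whatever the height of the peak. The number flagged is therefore not compared with that rate. No cause was tested. In WT, replicate 4 was the high one at the Sass6 and Trmt13 intron (percentile 25.1), near Frrs1 (29.1) and at an inner Tet2 intron region (8.31), against 0 in the others, and replicate 3 was the high one near Slc44a3 (26.5), also against 0. WT replicate 1 was the low one near Rpl34 (0), downstream of Tet2 (0), at an inner start site of Tet2 (0) and at the main Tet2 promoter (89.0), and the high one at the Stpg2 promoter (95.4). In TET2KO, replicate 3 was the high one near Frrs1 (56.0), in the Tet2 intron (18.9), at the weak region inside the 5′ end of Tet2 (34.8), at the main Tet2 promoter (92.9) and in the Gm26691 intron (18.9). In P300KO_TET2KO, replicate 3 was the high one at the Sass6 and Trmt13 intron (64.6).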

How the results depend on the processing

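No called region changed sign under any alternative that could test it, and over 477 refits of the 20 regions 355 kept and 122 lost the call. The causes of the losses were not tested. The regions called higher (7) and lower (13) became 3 and 2 with no deposit set term, 2 and 8 with the strongest 50000 peaks, 0 and 5 over regions in all 16 lists, 3 and 5 with at least 50% of a region covered, 0 and 0 in set 1 alone, and 14 and 35 in set 2 alone. The share elsewhere moved as well, from 0.172% (stretch 1.15%) to 0.747% with the strongest 50000 peaks (stretch 1.52%), 0.475% in set 2 (2.94%), 0.0628% with at least 50% covered (0.519%), 0.0111% without the set term (0.288%) and 0.00266% in set 1 (0). The lower count was also 3 when ranked by fold, 6 at a −log10 q of at least 2 and 8 over regions in at least 8 lists. TET2KO against WT (2) gave 1 with the replicate block, by fold and at a −log10 q of at least 2, 0 without the set term, in all 16 lists and in set 1, and 4 in set 2. P300KO_TET2KO against P300KO (9) gave 0 without the set term and in set 1, 5 with the strongest 50000 peaks, 1 in all 16 lists and 16 in set 2 (0.959% against 0.199% elsewhere). The p300 effect (2) gave 1 with the replicate block, normal scores or 50% coverage, 0 without the set term, by fold and in set 1, 14 with the strongest 50000 peaks (2.12% against 1.97% elsewhere), 5 in all 16 lists (1.16% against 0.656%) and 59 in set 2 (3.54% against 4.01%). Presence following Tet2 (2) gave 19 by the looser rule, 1 with the strongest 50000 peaks, 20 in set 1 (2.17% against 0.933% elsewhere) and 50 in set 2 (2.996% against 0.414%). The share of peaks in the stretch turned from −0.0110 to 0.00960 points at a −log10 q of at least 2 and to 0.0101 in set 1. The regions at Tet2 turned from −0.625 to 1.5 at a −log10 q of at least 2 (exact permutation p = 0.00617) and to 1.25 in set 2. On other chromosomes 0.240% were called among regions in all 16 lists.

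Leaving out each library gave 6 to 10 called higher and 8 to 22 lower, the most without WT replicate 1 (32, or 1.85%, with 0.345% elsewhere), and 8 lower without each of P300KO replicate 4, TET2KO replicate 3 and P300KO_TET2KO replicate 3. The share was 0.834% to 1.85% in the stretch and 0.0762% to 0.345% elsewhere. It gave 1 to 6 for TET2KO against WT, 5 to 14 for P300KO_TET2KO against P300KO, 1 to 7 for p300 and 2 to 4 for presence.

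With replicate numbers as a block, 16 of the 20 stayed called. Deviations of same-numbered libraries from group means correlated at 0.121 to 0.380, those of other libraries of the same set at 0.156 to 0.415, and at −0.100 to 0.0413 once set means were removed, so the libraries shared only a number. The difference of the Tet2 effect between backgrounds gave 0 in every alternative run. Depth per library is unknown, so a region without a peak was not detected rather than shown to be closed.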
